A study of Homo sapiens with 4 samples.

Results

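The genes described here make cholesterol and fatty acids or control their making: 37 genes of sterol synthesis, fatty acid synthesis, elongation and desaturation, with their regulators and 3 targets of the sterol-sensing receptor LXR. They were chosen by name from known pathway membership, and each was found on the array through the transcript accession of its features (the oligonucleotide spots of the array that stand for a gene). All 37 were found, with 44 features, among 19102 named genes. The 37 fall into 6 branches, which are the mevalonate pathway (7 genes), the steps from squalene to cholesterol (10), SREBP control (6), fatty acid synthesis (5), elongation and desaturation (6) and LXR targets (3). All 37 passed the filter on dim features and were above background on all 4 arrays.

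RNA came from PC3 cells, an established prostate cancer line, that had been infected for 48 h with lentivirus carrying an shRNA against ALKBH3, a DNA and RNA demethylase, or a control shRNA, which the study's methods describe as directed against GFP. All cells, controls included, carried a lentiviral shRNA and were kept in puromycin for 48 h or 96 h before collection, and no uninfected or unselected cells were measured on these arrays. The labels name no particular ALKBH3 shRNA and do not tell whether the time points came from separate infections. Single-colour Agilent arrays were hybridised, 1 for each shRNA at each time, 4 in all, so each shRNA had 2 arrays and each time point had 2. A p-value measures only the spread between such arrays, part of which may be technical. The 2 arrays of an shRNA differed in time, and the 2 arrays of a time point differed in shRNA. Without a block, the spread, and with it the SE and p-value, therefore also holds the effect of the other factor. With a block, little spread of a gene's own is left, and the SE rests largely on spread borrowed from other genes.

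Cholesterol is built from acetyl-CoA through mevalonate, isoprenoid units, squalene and lanosterol, and fatty acids are built from the same acetyl-CoA by carboxylation and chain assembly. When membrane sterol is low, SCAP carries the SREBP transcription factors out of the endoplasmic reticulum, and they switch on most genes of both pathways. INSIG proteins hold SCAP back when sterol is plentiful. LXR, activated by oxysterols, switches on cholesterol export and so marks the opposite state of the cell. Prostate cancer lines are known for active lipid synthesis.

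ALKBH3 itself, the target of the shRNA, was at -0.74 and -0.89 with control shRNA at 48 h and 96 h and at -2.48 and -2.41 with ALKBH3 shRNA. These and all signals here are log2 intensities relative to the 75th percentile of the array, so 0 is the intensity at that percentile. The arrays with ALKBH3 shRNA were both lower, by a mean of -1.63 on the log2 scale (SE 0.12, limma adjusted p = 0.253, and 0.0264 with time point as a block).

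The 75th percentile of intensity lay between 2150 and 2394, 66.96% to 70.91% of features were above background and 0 spots were saturated. Both 48 h arrays lay on 1 slide and both 96 h arrays on another, so time and slide cannot be told apart. With so few arrays every value is imprecise. Of the epithelial markers KRT8, KRT18, KRT19, EPCAM and CDH1, 5 of 5 were above background on all arrays, while of the prostate luminal markers reported here KLK3 was above background on 0 arrays and KLK2 and TMPRSS2 were on all 4. Leukocyte markers (5 of 5), fibroblast markers (3 of 5, with COL1A2 and PDGFRB on 0 arrays) and endothelial markers (3 of 5, with TEK on 0) were also above background on all arrays, at a summed linear signal of 0.416 to 0.925 of the 75th percentile per list and array against 161 to 181 for the epithelial list. The endothelial sum was 0.845 and 0.899 with control shRNA and 0.565 and 0.497 with ALKBH3 shRNA, the fibroblast sum 0.63 and 0.416 against 0.895 and 0.739. The leukocyte sum was 0.816 and 0.925 at 48 h and 0.624 and 0.619 at 96 h. CDH1 was at -0.12 and -1.28 with control shRNA at 48 h and 96 h and at 0.78 and -0.71 with ALKBH3 shRNA, and EPCAM at 2.87 and 2.41 and at 3.83 and 3.40. The part of these markers in the results was not tested. In RNA from a whole culture, fewer cells of a type and less RNA per cell cannot be told apart.

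The promoters of 4 genes are shown, for SREBP control (INSIG1 and SREBF1), sterol synthesis (TM7SF2) and LXR targets (MYLIP). They are 4 of the 7 genes that fell between the time points with the shRNA as a block. Each of the 4 had a single promoter window, while FADS2 and SC5D had more than 1 and ABCG1 had none. Each line gives the 250 bases before the RefSeq transcription start, read along the gene, on build GRCh38.p14: INSIG1 at chr7:155297628-155297877 on the plus strand, TM7SF2 at chr11:65111622-65111871 on the plus strand, SREBF1 at chr17:17836987-17837236 on the minus strand and MYLIP at chr6:16128836-16129085 on the plus strand. Capitals mark every match, on either strand, to CCAAT (the NF-Y box) or GGGCGG (the GC box bound by Sp1), factors known to act beside SREBP. The core of the sterol regulatory element, searched as TCACNCCAC, had 0 matches in these 4 windows.
INSIG1: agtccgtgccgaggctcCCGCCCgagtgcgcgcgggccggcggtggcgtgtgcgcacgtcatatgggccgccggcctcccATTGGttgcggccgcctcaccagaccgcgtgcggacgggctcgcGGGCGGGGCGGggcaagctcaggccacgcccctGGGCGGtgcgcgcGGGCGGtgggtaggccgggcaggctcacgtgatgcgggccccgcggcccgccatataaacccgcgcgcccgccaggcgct
TM7SF2: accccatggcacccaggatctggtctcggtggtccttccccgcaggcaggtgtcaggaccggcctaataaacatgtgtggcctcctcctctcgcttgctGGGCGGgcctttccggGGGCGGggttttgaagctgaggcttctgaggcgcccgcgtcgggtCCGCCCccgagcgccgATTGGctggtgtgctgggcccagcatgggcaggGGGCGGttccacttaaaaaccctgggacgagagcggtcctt
SREBF1: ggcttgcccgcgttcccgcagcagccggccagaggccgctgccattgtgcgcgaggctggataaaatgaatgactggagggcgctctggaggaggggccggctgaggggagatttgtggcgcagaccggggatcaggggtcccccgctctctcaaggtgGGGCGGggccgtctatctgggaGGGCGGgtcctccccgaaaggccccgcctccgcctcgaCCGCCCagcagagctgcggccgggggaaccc
MYLIP: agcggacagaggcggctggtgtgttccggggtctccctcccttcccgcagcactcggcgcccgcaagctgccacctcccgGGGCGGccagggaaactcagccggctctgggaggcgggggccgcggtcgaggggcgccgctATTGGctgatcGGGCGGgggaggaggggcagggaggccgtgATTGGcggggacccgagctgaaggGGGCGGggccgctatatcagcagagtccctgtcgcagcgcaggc
INSIG1 held 1 NF-Y box and 5 GC boxes, TM7SF2 1 and 4, SREBF1 0 and 3 and MYLIP 2 and 3, with no overlap between matches of different kinds in these 4 windows, although CCAAT and GGGCGG can share letters on opposite strands. The windows of FADS2, not shown, held 0 NF-Y boxes and 0 or 1 GC box, and those of SC5D held 1 of each. RefSeq windows were on hand for 32 of the 37 genes (43 windows, since some genes have several starts). CCAAT was found in 26 of the 43 windows, against 32.01% of all 35116 windows, and GGGCGG in 38 of the 43, against 42.64%. By gene, 22 of the 32 (68.8%) had at least 1 window with CCAAT and 30 (93.8%) at least 1 with GGGCGG. The 35116 windows were not limited to genes above background on these arrays. TCACNCCAC was found for 1 gene, SREBF2, and in 0.88% of all windows. A gene with several windows had more chances of a match, these are matches of letters and not binding sites, and no factor was measured.

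The comparison of ALKBH3 shRNA with control shRNA asks whether loss of ALKBH3 goes with a change in these genes, and the changes were small. Most of the 37 genes were slightly lower with ALKBH3 shRNA: the median log2 difference over the 4 arrays was -0.13, against -0.003 for all 14556 genes tested. Without the control array of 48 h the median of the 37 was 0.04. The lowest values were those of ABCG1 (-0.68), INSIG1 (-0.50), MYLIP and FASN (both -0.37), and the highest was that of STARD4 (0.21). The genes of fatty acid synthesis (median -0.29) and the LXR targets (median -0.37) were lower at both time points in 5 of 5 and 3 of 3 genes. Leaving out 1 array moved these 2 medians to between -0.41 and -0.16 and between -0.60 and -0.15, in both cases with the values nearest 0 without the control array of 48 h and the lowest without the control array of 96 h.

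By the joint cutoff of a 2-fold change with unadjusted p below 0.05, 0 of the 37 genes were called higher (1.04% of all genes tested) and 0 lower (0.234%). At an unadjusted p below 0.05 alone, 0 were higher (4.7% of all) and 0 lower (3.63%), and after Benjamini-Hochberg adjustment in limma no gene of the array passed in either direction (0%). With time point as a block, 1 of 37 passed an adjusted p of 0.05 as lower, ABCG1 (1.5% of all genes), and 0 as higher (2.96%). The arrays of the shRNAs did not overlap for 9 genes that were lower (24.3%, against 19.1% of all genes) and for 1 that was higher (against 17.4%). The share of genes without overlap in the lower direction was thus close to that of all genes.

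At 48 h 32 of 37 genes were below 0 (86.5%, against 51.9% of all genes), with a median of -0.20, and at 96 h 25 of 37 were (67.6%, against 49.1%), with a median of -0.08. Genes lower at both times numbered 24 of 37 (64.9%, against 35.6% of all). These are differences of 1 array against 1 array and carry no test. The 96 h median is not settled in its sign, since it was 0.029 after normexp background correction and 0.0098 in the authors' normalized table. The median of the mevalonate genes was -0.24 at the first time and 0.09 at the second, and that of the squalene branch -0.25 and -0.04. Fatty acid synthesis stood at -0.42 and -0.17, the LXR targets at -0.41 and -0.34, SREBP control at -0.08 at both times, and elongation and desaturation at -0.03 and -0.11.

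**Figure D1:**
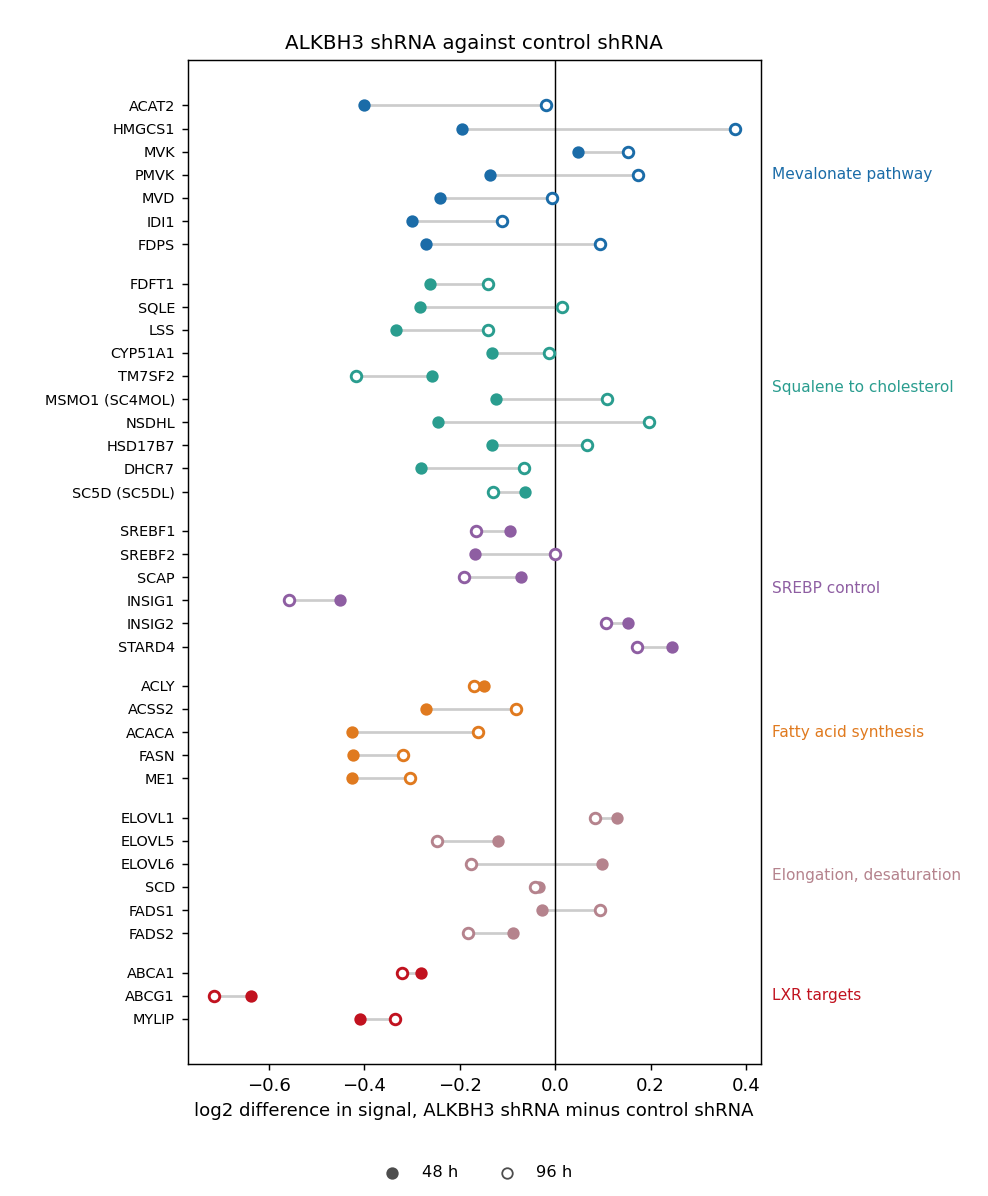
Log2 difference in signal between ALKBH3 shRNA and control shRNA for each of the 37 genes (rows, grouped and coloured by branch) at 48 h (filled) and 96 h (open), 1 array against 1 array. In the mevalonate and squalene branches most open points lie to the right of the filled ones, while both points lie left of 0 for all 5 genes of fatty acid synthesis and all 3 LXR targets.

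The comparison of 96 h with 48 h asks how the genes moved while selection went on, and most of them were lower at the later time with either shRNA. The median log2 difference was -0.24, against -0.0079 for all 14559 genes tested, with values from -1.01 (INSIG1) to 0.14 (ELOVL6). After INSIG1 the lowest were HMGCS1 (-0.76), TM7SF2 (-0.69), ABCG1 (-0.65), SREBF1 (-0.49) and FADS2 (-0.49). All 7 mevalonate genes, all 10 of the squalene branch, all 6 of SREBP control and all 3 LXR targets had a mean below 0.

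INSIG1 was the 1 gene of 37 that fell by the joint cutoff (0.79% of all genes fell by it), and 0 of 37 rose (0.247%). At an unadjusted p below 0.05 alone, 12 were lower (32.4%, against 9.38% of all genes) and 0 higher (against 9.89%). These 12 were HMGCS1, FDFT1, CYP51A1, TM7SF2, MSMO1, HSD17B7, DHCR7, SC5D, SREBF1, INSIG1, ACSS2 and FADS2, which include 7 of the 10 genes from squalene to cholesterol. The count of 12 was 0 without the control array of 48 h, 3 without the ALKBH3 shRNA array of 96 h, 7 without the control array of 96 h and 6 with the Student test of the methods. No gene of the array passed an adjusted p of 0.05 in either direction (0%). With the shRNA as a block, 7 of 37 fell (18.9%, against 7.25% of all genes) and 0 rose (against 6.15%): INSIG1, ABCG1, TM7SF2, SREBF1, FADS2, MYLIP and SC5D. The 2 arrays of 96 h lay below the 2 of 48 h for 25 of 37 genes (67.6%, against 26.4% of all) and above them for 1, ELOVL6 (against 26.9%).

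With control shRNA 34 of 37 genes were below 0 (91.9%, against 52.8% of all genes), with a median of -0.33, and with ALKBH3 shRNA 32 were (86.5%, against 49.8%), with a median of -0.19. Genes lower with both shRNAs numbered 30 of 37 (81.1%, against 39.5% of all). Whether the time difference was smaller with ALKBH3 shRNA could not be tested, because with 1 array in each combination no spread is left. The size of these differences depended on the processing: the median of the 37 was -0.15 after normexp and -0.16 in the authors' table, and that of the squalene branch went from -0.35 to -0.15 and -0.16. With median centring, quantile normalization or the percentile over bright features, all on the processed signal, the median of the 37 was -0.22, -0.23 and -0.23. Which step of the processing made the difference was not tested.

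**Figure D2:**
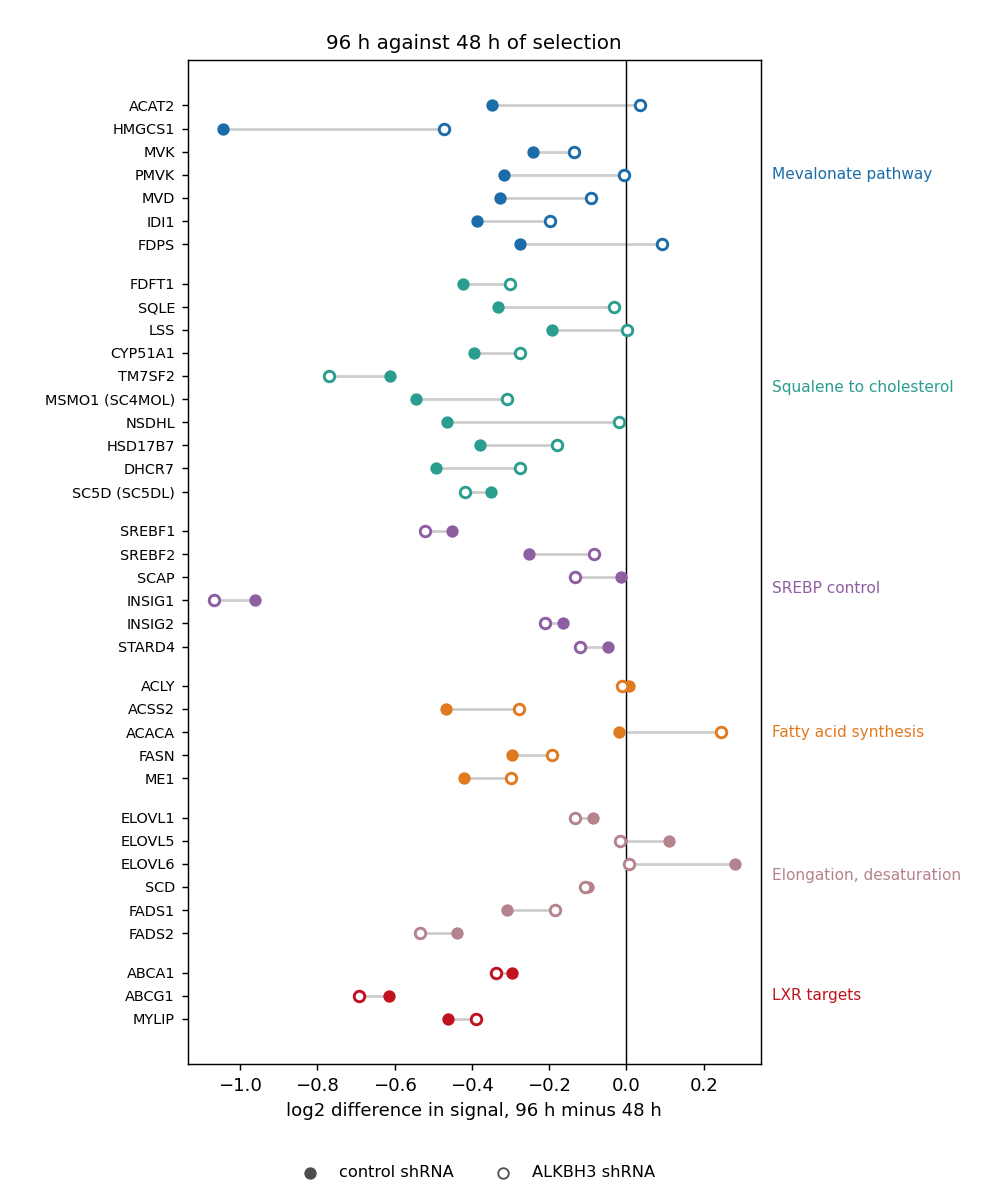
Log2 difference in signal between 96 h and 48 h for each of the 37 genes (rows, grouped and coloured by branch) with control shRNA (filled) and with ALKBH3 shRNA (open), 1 array against 1 array. Both points of INSIG1, at -0.96 and -1.07, lie near the left edge, and 30 of the 37 genes have both points left of 0.

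Among the regulators, INSIG1, which retains the SCAP and SREBP complex in the endoplasmic reticulum and is itself an SREBP target, moved most. Its signal was 1.73 at 48 h and 0.77 at 96 h with control shRNA, and 1.28 and 0.21 with ALKBH3 shRNA. Both 96 h arrays lay below both 48 h arrays, and within each time the ALKBH3 shRNA array was the lower. The difference between times was -1.01 on the log2 scale (SE 0.26, 95% interval -1.72 to -0.31, limma adjusted p = 0.172, and 0.0219 with the shRNA as a block), a 2.02-fold fall. It stood at -0.97 after normexp and at -0.99 after quantile normalization, after median centring and in the authors' table, just short of 2-fold, and at -0.79 without the control array of 48 h and -0.73 without the ALKBH3 shRNA array of 96 h. The difference between shRNAs was -0.50 (SE 0.49, limma adjusted p = 0.902), with the fall between times held in that SE. With time point as a block its SE was 0.08 and its adjusted p 0.0526.

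SREBF1, which encodes the SREBP form that drives mainly fatty acid genes, had signals of 3.95 and 3.50 with control shRNA at 48 h and 96 h and of 3.86 and 3.34 with ALKBH3 shRNA. The 96 h arrays were both lower (difference -0.49, SE 0.11, adjusted p = 0.147, and 0.0334 with the block), and the arrays of the shRNAs overlapped. A second, dimmer feature of SREBF1 differed by -0.17 between times. SREBF2, which encodes the form that drives mainly sterol genes, differed by -0.17 between times and by -0.08 between shRNAs, and SCAP, the escort of both, by -0.07 and -0.13. STARD4, a carrier of cholesterol within the cell, had signals of -0.47 and -0.52 with control shRNA and of -0.23 and -0.35 with ALKBH3 shRNA. It was the 1 gene of the 37 whose ALKBH3 shRNA arrays both lay above both control arrays (difference 0.21, SE 0.12, adjusted p = 0.754). INSIG2, a second retention protein, was higher with ALKBH3 shRNA by 0.13 (SE 0.14), with overlap between the groups.

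In the mevalonate pathway HMGCS1, the synthase that joins acetyl groups ahead of mevalonate, had signals of 0.26 and -0.78 with control shRNA at 48 h and 96 h and of 0.07 and -0.41 with ALKBH3 shRNA. Both 96 h arrays were below both 48 h arrays (difference -0.76, SE 0.17, 95% interval -1.21 to -0.30, adjusted p = 0.147, and 0.0516 with the block). The ALKBH3 shRNA array was lower than control at 48 h (-0.20) and higher at 96 h (0.38), so the groups overlapped. ACAT2, which condenses acetyl-CoA in the first step, was at 2.83 and 2.48 with control shRNA and at 2.43 and 2.47 with ALKBH3 shRNA. The control array of 48 h stood above the others, which were nearly equal. IDI1, the isomerase of the isoprenoid units, was at 0.98 and 0.59 with control shRNA and at 0.68 and 0.48 with ALKBH3 shRNA, lower at 96 h on both pairs of arrays (difference -0.29, SE 0.14, adjusted p = 0.337). The kinases MVK and PMVK, the decarboxylase MVD and the prenyl synthase FDPS differed by -0.21 to -0.09 between times and by -0.12 to 0.10 between shRNAs.

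Of the enzymes from squalene to cholesterol, TM7SF2, a sterol reductase that acts on the ring after lanosterol, had the widest differences. Its signal was 0.92 and 0.30 with control shRNA at 48 h and 96 h and 0.66 and -0.11 with ALKBH3 shRNA. The 96 h arrays were both lower (difference -0.69, SE 0.19, 95% interval -1.20 to -0.18, adjusted p = 0.184, and 0.0248 with the block), and within each time the ALKBH3 shRNA array was the lower, by -0.26 and -0.42. MSMO1, also named SC4MOL, a methyl sterol oxidase, was at -1.54 and -2.08 with control shRNA and at -1.66 and -1.97 with ALKBH3 shRNA, so time separated the arrays (difference -0.43, SE 0.10, adjusted p = 0.163) and the shRNA did not (-0.0078, SE 0.24). SC5D, also named SC5DL, a sterol desaturase of the last steps, was at -2.01 and -2.36 with control shRNA and at -2.07 and -2.49 with ALKBH3 shRNA.

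The 96 h arrays of SC5D were both lower (difference -0.38, SE 0.10, adjusted p = 0.174, and 0.0485 with the block), but only by -0.17 after normexp. LSS, the cyclase that closes the ring to lanosterol, was the 1 gene of this branch whose shRNA groups did not overlap. Its signal was 2.07 and 1.87 with control shRNA and 1.73 on both ALKBH3 shRNA arrays (difference -0.24, SE 0.13, adjusted p = 0.740), and a second feature differed by -0.25. The other 6 genes differed between times by -0.38 (DHCR7, the reductase of the final step) to -0.18 (SQLE, the squalene epoxidase), with FDFT1, the squalene synthase, at -0.36, CYP51A1, the lanosterol demethylase, at -0.33, HSD17B7, a ketosteroid reductase, at -0.28 and NSDHL, a sterol dehydrogenase, at -0.24. Between shRNAs these 6 ranged from -0.20 (FDFT1) to -0.02 (NSDHL). The 3 features of HSD17B7 differed between times by -0.28, -0.33 and -0.42.

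The shRNA groups did not overlap, with ALKBH3 shRNA lower, for 4 of the 5 genes of fatty acid synthesis (80%, against 19.1% of all genes), which were ACLY, ACACA, FASN and ME1, and the unadjusted p of these 4 lay between 0.0748 and 0.210. FASN, the synthase that assembles palmitate, had signals of 3.54 and 3.24 with control shRNA at 48 h and 96 h and of 3.11 and 2.92 with ALKBH3 shRNA. Both ALKBH3 shRNA arrays lay below both control arrays (difference -0.37, SE 0.16, 95% interval -0.80 to 0.06, adjusted p = 0.658, and 0.0848 with time point as a block). ME1, the malic enzyme that supplies NADPH, was at -0.08 and -0.50 with control shRNA and at -0.50 and -0.80 with ALKBH3 shRNA, so that the control array of 96 h and the ALKBH3 shRNA array of 48 h were nearly equal (difference between shRNAs -0.36, SE 0.20, adjusted p = 0.748).

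ACACA, the carboxylase that makes malonyl-CoA, differed by -0.29 between shRNAs on its brighter feature and by -0.0035 on a dimmer one. ACLY, which makes cytosolic acetyl-CoA from citrate, differed by -0.16 between shRNAs and by -0.0019 between times. ACSS2, which makes acetyl-CoA from acetate, was at 1.38 and 0.91 with control shRNA and at 1.11 and 0.83 with ALKBH3 shRNA, lower at 96 h on both pairs (difference -0.37, SE 0.13, adjusted p = 0.239). It was the gene of this branch with an unadjusted p below 0.05 between times, and its shRNA groups overlapped.

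Among the genes of elongation and desaturation FADS2, the delta-6 desaturase of polyunsaturated fatty acids, had signals of 5.36 and 4.92 with control shRNA at 48 h and 96 h and of 5.27 and 4.74 with ALKBH3 shRNA. The 96 h arrays were both lower (difference -0.49, SE 0.11, 95% interval -0.78 to -0.19, adjusted p = 0.150, and 0.0344 with the block). FADS1, the delta-5 desaturase, was at 3.25 and 2.95 with control shRNA and at 3.22 and 3.04 with ALKBH3 shRNA, again with both 96 h arrays lower (difference -0.25, SE 0.09, adjusted p = 0.263). ELOVL5, an elongase of polyunsaturated chains, was at 1.73 and 1.84 with control shRNA and at 1.61 and 1.59 with ALKBH3 shRNA, lower with ALKBH3 shRNA on both pairs (difference -0.18, SE 0.12, adjusted p = 0.795).

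SCD, the stearoyl-CoA desaturase, differed by -0.10 between times (95% interval -0.34 to 0.14) and by -0.04 between shRNAs (-0.36 to 0.28). ELOVL6, which lengthens palmitate, differed by 0.14 between times and by -0.04 between shRNAs, and ELOVL1, an elongase of saturated very long chains, by -0.11 and 0.11. The branch median between times, -0.11, changed sign to 0.03 after normexp and to 0.02 in the authors' table.

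**Figure D3:**
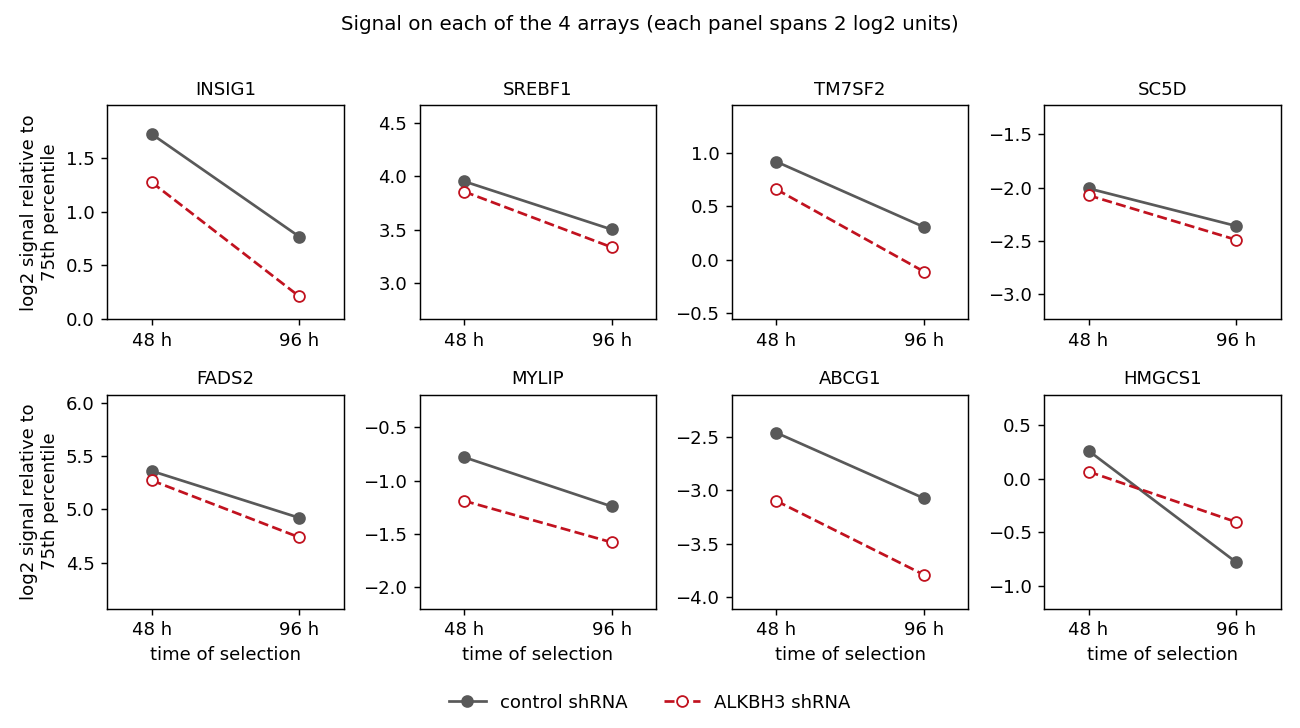
Log2 signal relative to the 75th percentile of the array (vertical axis) at 48 h and 96 h (horizontal axis) for 8 genes, with control shRNA as filled points and solid lines and ALKBH3 shRNA as open points and broken lines, 1 array a point. The 8 are the 7 genes that fell between times in the blocked fit, and HMGCS1, so that all 8 lie lower at 96 h with either shRNA follows from the choice. In 7 of the 8 panels the ALKBH3 shRNA points lie lower at each time, while the lines of HMGCS1 cross. Over all 37 genes, 30 were lower at 96 h with both shRNAs and 24 were lower with ALKBH3 shRNA at both times.

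On their brightest features the 3 LXR targets had means below 0 in both comparisons. ABCG1, which exports cholesterol to high-density lipoprotein, had signals of -2.46 and -3.07 with control shRNA at 48 h and 96 h and of -3.10 and -3.79 with ALKBH3 shRNA. The array with control shRNA at 96 h and that with ALKBH3 shRNA at 48 h were nearly equal, with control shRNA at 48 h highest and ALKBH3 shRNA at 96 h lowest. The difference between shRNAs was -0.68 (SE 0.33, 95% interval -1.55 to 0.19, adjusted p = 0.704, and 0.0354 with time point as a block), and between times -0.65 (SE 0.34, adjusted p = 0.366, and 0.0244 with the shRNA as a block). After normexp these values were -0.47 and -0.33, and leaving out 1 array moved them to between -1.02 and -0.33 and between -1.01 and -0.29, nearest 0 in both cases without the ALKBH3 shRNA array of 96 h.

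MYLIP, a ubiquitin ligase that marks lipoprotein receptors for breakdown, was at -0.78 and -1.24 with control shRNA and at -1.19 and -1.58 with ALKBH3 shRNA. It was lower at 96 h (difference -0.42, SE 0.20, adjusted p = 0.333, and 0.0414 with the block) and lower with ALKBH3 shRNA at each time, with overlap between the shRNA groups (difference -0.37, SE 0.23, adjusted p = 0.785). Leaving out 1 array moved the difference between times to between -0.63 and -0.22 and that between shRNAs to between -0.60 and -0.14, nearest 0 in both cases without the control array of 48 h. ABCA1, which loads cholesterol onto apolipoprotein A-I, differed by -0.30 between shRNAs and by -0.32 between times, while its second, much dimmer feature differed by -0.04 and 0.17.

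Another 45 genes of sterol and fatty acid metabolism, outside the 37, were tested beside them. Between shRNAs 2 of these 45 were called higher by the joint cutoff (4.44%, against 1.04% of all genes), both of them elongases. ELOVL3, an elongase of saturated chains, had signals of -5.76 and -6.07 with control shRNA and of -4.62 and -4.95 with ALKBH3 shRNA, higher on both pairs (difference 1.13, SE 0.18, adjusted p = 0.348, and 0.0264 with the block). ELOVL7, another elongase, was at -4.16 and -4.52 with control shRNA and at -3.00 and -3.63 with ALKBH3 shRNA (difference 1.03, SE 0.27, adjusted p = 0.438, and 0.0294 with the block).

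ELOVL2, which lengthens polyunsaturated chains, was lower with ALKBH3 shRNA in the blocked fit (-0.50, adjusted p = 0.0488). Between times 10 of the 45 were lower at an unadjusted p below 0.05 (22.2%, against 9.38% of all genes) and 0 higher (against 9.89%), and in the blocked fit 6 fell (13.3%, against 7.25%) and 1 rose (2.22%, against 6.15%). Those that fell were NPC2, a lysosomal sterol carrier, MID1IP1, a partner of acetyl-CoA carboxylase, the elongases ELOVL4 and ELOVL7, the desaturase SCD5 and the acyl-CoA synthetase ACSL5, by -0.44, -0.55, -0.68, -0.50, -0.49 and -0.59, and the gene that rose was ELOVL2, by 0.66. The median of the 45 was -0.04 between shRNAs and -0.14 between times.

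**Figure D4:**
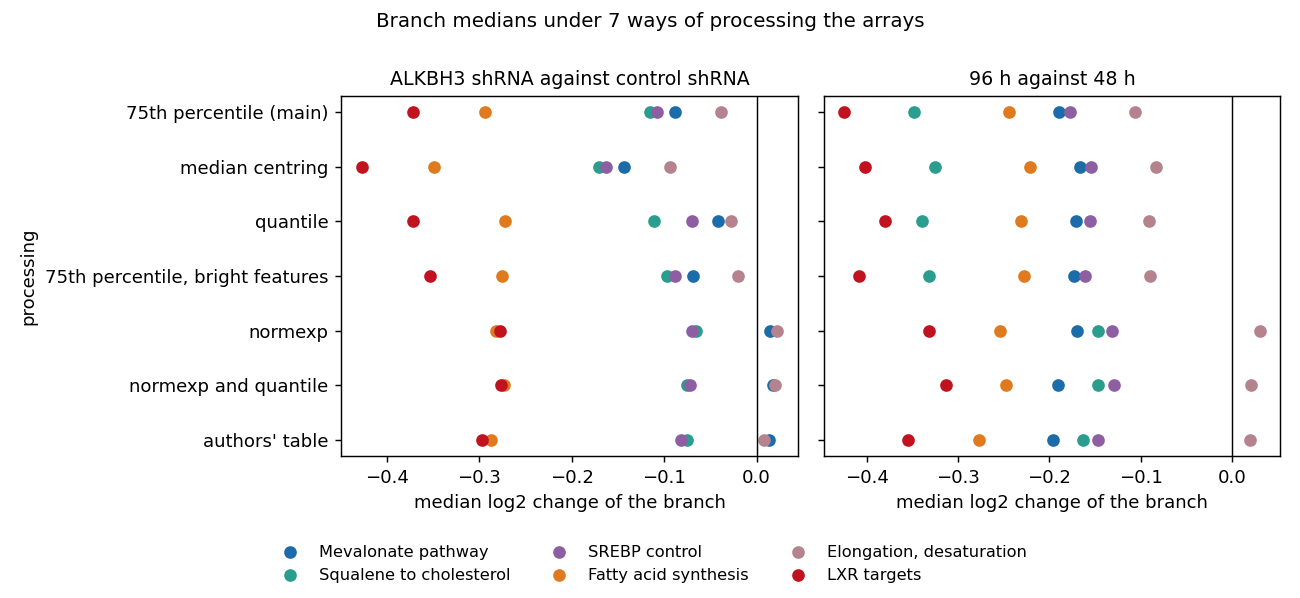
Median log2 change of each branch (coloured points) between shRNAs (left) and between times (right) under 7 ways of processing the arrays (rows). Fatty acid synthesis and LXR targets stay left of 0 in both panels under all 7, while the mevalonate branch between shRNAs and the elongation and desaturation branch in both panels move to the right of 0 after normexp and in the authors' table. The squalene branch and SREBP control also lie left of 0 in both panels after normexp and in the authors' table.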

How the data were processed

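The authors deposited, for each of the 4 arrays, spot intensities from Agilent Feature Extraction (version 10.7.3.1 in the file headers, array design on build hg19), with background and spatial trends already subtracted. They also deposited a table of log2 intensities normalized between arrays, used as an alternative. The spot tables hold no gene name, so features were named through their transcript accessions and the RefSeq gene table of GRCh38.p14 (24910 of 34127 features), which found all 37 genes.

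Outlier spots were removed (180 to 379 an array), log2 intensities were centred on each array's 75th percentile and spots of a feature were averaged. A feature was tested where at least 0.5 of its spots were well above background on both arrays of either group compared, and the feature with the highest mean signal stood for its gene. Groups were compared with lmFit and eBayes (limma 3.58.1, R 4.3.3, with data.table, version 1.17.8) without a covariate, and p-values were adjusted (Benjamini-Hochberg) across every tested gene. The cutoffs were a 2-fold change with an unadjusted p below 0.05, or an adjusted p below 0.05. Time point (also the slide) or shRNA entered as a block in a further fit. With 4 arrays that fit leaves each gene little residual spread of its own. Its SE and p-values therefore rest largely on the variance that limma shares across genes. The pairing comes from the labels, and the deviations of paired arrays correlated across genes at 0.703 (same time) and 0.64 (same shRNA). The fits were also run on simulated arrays with planted changes wider than any of the genes described here and no effect of the other factor. That run therefore does not bear on differences as small as those reported. The alternatives were normexp (offset 50) alone or before quantile normalization, quantile normalization of the processed signal, median centring, the percentile over bright features, the authors' table, other filters on dim features, the mean over features or each feature alone, the methods' Student test, a 1.5-fold cutoff and leaving out each array.

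Values on each array are given for genes called by any cutoff, with or without the block, and for the 2 genes of each branch with the widest difference in either comparison (18 genes). The genes and lists were chosen with earlier results of these data known. Sequence windows were searched with Python 3 and pandas. Some marker genes are not reported here, and ChIP-seq data are not analysed here.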

Additional observations from a re-analysis of the deposited data

How the results depend on the processing

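Of 236 counts of the genes described here, recomputed under the alternatives, 200 stayed equal or close to the reported count. Of 4 further counts, those of the other lipid genes with the block, 0 did. Apart from the block at an adjusted p, the share of all genes was not computed under the alternatives. The counts under them therefore have no share to be set against. Of 504 medians, 485 stayed within the spread of the arrays, which includes some that changed sign. For example, the median of the genes described here between shRNAs went from -0.1314 to 0.0389 without the control array of 48 h. Of 540 single-gene values, 495 kept their direction and their side of the cutoff. These totals include recomputations that could not differ. The block and the Student test leave every log2 difference as it is. So do the filters on dim features, since all 37 genes were above background on all 4 arrays. Under each of these the median of the 37 was again -0.1314 between shRNAs and -0.2443 between times. The median of all genes stayed between -0.0581 and 0.016 on the log2 scale under the scalings tried. Each group had 2 arrays and signal over background limits the dimmest genes, so small differences were not detectable.

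Between times, the count of genes called lower, 1 as reported, was 0 under normexp with or without quantile normalization, quantile normalization, median centring, the percentile over bright features, the authors' table and the Student test of the methods, and 3 at a 1.5-fold cutoff. The count at an unadjusted p below 0.05, 12 as reported, was 6 with the Student test. Genes without overlap in the lower direction, 25 as reported, numbered 14 after normexp, and those in the higher direction, 1 as reported, numbered 2 after normexp, after normexp with quantile normalization and in the authors' table. The squalene median was -0.1462, -0.1469 and -0.1634 under these 3 settings in turn, and with ALKBH3 shRNA alone -0.0447, -0.0557 and -0.0689. The median of SREBP control with ALKBH3 shRNA alone was -0.0709 after normexp. The elongation and desaturation median turned to 0.0306, 0.0209 and 0.0198 over the same settings, to 0.0072, 0.0117 and 0.0075 with control shRNA alone and to 0.0995, 0.0548 and 0.0587 with ALKBH3 shRNA alone. STARD4 turned to 0.0035 after normexp with quantile normalization. The cause was not tested.

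Between shRNAs, genes without overlap in the higher direction, 1 as reported, numbered 4 after normexp, 3 after normexp with quantile normalization and in the authors' table, and 2 after quantile normalization or with the percentile over bright features. The count lower at an unadjusted p below 0.05, 0 as reported, was 1 under normexp with or without quantile normalization, median centring, the authors' table and the Student test. MSMO1 turned to 0.0269 after normexp, 0.0216 with quantile normalization added, 0.0112 with bright features and 0.0173 in the authors' table, and FADS1 to -0.0225 after median centring.

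With the replicate block, the paired fit, 1 of the 37 genes was lower between shRNAs at an adjusted p below 0.05 (1.5% of all genes). Between times 7 were (7.25% of all). At an unadjusted p below 0.05 these counts were 8 and 19. The share of all genes at that cutoff was not computed with the block, so nothing can be read from these counts about the 37 genes. Of the 45 other lipid genes, 2 passed an adjusted p of 0.05 as higher between shRNAs (4.44%, against 2.96% of all genes) and 1 as lower (2.22%, against 1.5%). Between times 1 was higher (2.22%, against 6.15%) and 6 were lower (13.3%, against 7.25%). The block moved no other count of these genes past the cutoffs of 2-fold or of adjusted p.

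Leaving out 1 array also leaves shRNA and time unbalanced. Between times it gave 0 to 2 genes called lower, with 0 without the control array of 48 h or the ALKBH3 shRNA array of 96 h and 2, INSIG1 and ABCG1, without the control array of 96 h. At an unadjusted p below 0.05 it gave 0 to 13 lower, with 0, 7 and 3 without these arrays in turn of control 48 h, control 96 h and ALKBH3 shRNA 96 h. Between shRNAs it gave 0 to 1 called lower and 0 to 1 lower at an unadjusted p below 0.05, with ABCG1 called without the ALKBH3 shRNA array of 48 h. The shRNA median ranged from -0.1741 to 0.0793 for SREBP control, from -0.2879 to 0.0491 for the mevalonate genes, from -0.2901 to 0.0761 for the squalene branch, from -0.1049 to 0.0701 for elongation and desaturation and from -0.2879 to 0.0389 for all 37 genes. Single genes ranged between shRNAs from -0.43 to 0.61 for HMGCS1, -0.72 to 0.047 for TM7SF2, -0.28 to 0.26 for MSMO1, -0.30 to 0.11 for SC5D, -0.39 to 0.13 for SREBF1, -1.04 to 0.029 for INSIG1, -0.41 to 0.057 for ACSS2, -0.12 to 0.19 for FADS1 and -0.40 to 0.13 for FADS2, and between times from -0.36 to 0.044 for ACAT2, -0.26 to 0.071 for LSS, -0.21 to 0.039 for STARD4 and -0.077 to 0.17 for ELOVL5.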
